A study of Homo sapiens with 12 samples.

Results

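The transcripts described here are those of 39 human genes of the ATF4 amino acid response. They were chosen by name, as known target genes and partners of the transcription factor ATF4 and as genes of the enzymes that charge transfer RNAs. The choice was made with earlier results of these data known, so shares of members set beside those of all genes are not independent evidence. All 39 had a row among the 22395 named genes of the array, and 27 of them passed the filter of a mean level of 5 on the log2 scale, which 5820 genes passed in all. Expression was measured in a culture line of human lung adenocarcinoma, NCI-H1975, whose EGFR carries the substitutions L858R and T790M, so every array, the untreated one included, comes from cells with this mutant receptor. The 12 Affymetrix Human Gene 2.1 ST arrays comprised 4 of cells in 1 µM erlotinib with 3 µM quinacrine (6, 12, 24 and 48 h), 3 of cells in 3 µM quinacrine alone (6, 12 and 24 h), 4 of cells in 1 µM erlotinib alone (6, 12, 24 and 48 h) and 1 of untreated cells, for which no time is used here. Erlotinib inhibits the kinase of EGFR, and quinacrine is an acridine first used against malaria. The title of the study names resistance to erlotinib as its question, and there was 1 array for each treatment and time, all of a single cell line.

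Cells that run short of amino acids, or whose endoplasmic reticulum is stressed, phosphorylate the initiation factor eIF2, which slows translation in general but favours that of the ATF4 message. ATF4 pairs with C/EBP proteins and binds C/EBP-ATF response elements in genes for amino acid synthesis, amino acid import, tRNA charging and the feedback on eIF2. Tumour cells use the same genes to supply protein synthesis during growth. Much of the control of ATF4 itself lies in translation, which an array of transcripts does not read.

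The values are the deposited log2 levels after RMA, and a difference of 1 is a doubling of the signal. The median over the tested genes was 6.18 on the combination 6 h array and 6.39 to 6.56 on the other 11 arrays. That array also had the smallest interquartile range over all rows (2.04, against 2.26 to 2.88) and the lowest median correlation with the other arrays (0.955, against up to 0.981). The epithelial markers EPCAM, CDH1, KRT7, KRT19 and NKX2-1 passed the filter, while KRT8, KRT18 and NAPSA did not. Of 6 markers of blood or stromal cells with a row (PTPRC, CD3E, CD68, COL1A1, COL1A2 and HBB), CD68 alone passed the filter, and the highest value of the others on any array was 3.25. The labels gave no batch or scan day.

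The core of a C/EBP-ATF response element was searched in the promoters of the members, because it is the sequence through which ATF4 acts. The letters TGATGNAA were sought on both strands of the stretch from 250 bases before to 50 bases after each RefSeq start on GRCh38.p14, and no other motif was sought. A promoter entry was found for 34 members, and 13 of them held a match: ATF3, CHAC1, CEBPG, ASNS, SLC3A2, SLC1A5, SLC7A1, AARS1, GARS1, MARS1, NARS1, IARS1 and TARS1. That is 38.2% of the members with an entry, compared with 4.46% of 27305 genes with an entry. The members were named as ATF4 targets to begin with, so the share describes the list and is not independent evidence about it. The match with its flanks is shown for 5 members, 2 regulators, 1 enzyme and 2 synthetases, read 5′ to 3′ along the gene, with the matched letters or their reverse complement in capitals. Counted from the start of the gene, the match begins at base -191 for ATF3, -209 for CHAC1, -68 for ASNS, -187 for AARS1 and -13 for IARS1.
ATF3, chr1:212565186-212565253, plus strand: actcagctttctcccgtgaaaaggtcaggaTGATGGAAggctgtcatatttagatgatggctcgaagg
CHAC1, chr15:40953232-40953299, plus strand: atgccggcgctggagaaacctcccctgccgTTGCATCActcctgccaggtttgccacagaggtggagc
ASNS, chr7:97872439-97872506, minus strand: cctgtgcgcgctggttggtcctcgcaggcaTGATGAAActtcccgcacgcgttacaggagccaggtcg
AARS1, chr16:70289656-70289723, minus strand: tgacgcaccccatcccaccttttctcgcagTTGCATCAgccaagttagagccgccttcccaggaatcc
IARS1, chr9:92293698-92293740, minus strand: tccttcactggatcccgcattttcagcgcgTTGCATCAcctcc

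The arrays with quinacrine, alone or in the combination, were first compared with the arrays of erlotinib alone. XPOT, the exporter of tRNA from the nucleus, the synthetase genes EPRS1 and AARS1, the leucine transporter gene SLC7A5 and the serine synthesis gene PSAT1 were lower with quinacrine. No member was higher, and 22 of 27 did not pass the test. The genes that passed were lower than in erlotinib by 1.39- to 2.04-fold. The median difference of the 27 members was -0.17 on the log2 scale, against -0.01 for all tested genes, and 20 of 27 members lay below 0, against 51.5% of all tested genes. The 4 groups of members differed in their medians, which were -0.20 for the 11 synthetase and export genes, -0.05 for the 5 transporters, -0.33 for the 4 enzymes and 0.23 for the 7 regulators.

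These calls came from limma, fitted to all 5820 genes on the 11 treated arrays with a term for treatment and a term for time, and with Benjamini-Hochberg adjustment at a threshold of 0.05. Of all tested genes, 3.78% were called lower and 2.87% higher, 6.65% in either direction, so that 5 of 27 members is to be read against about that share. No condition had a replicate: the error is what the sum of a treatment term and a time term leaves over, and n counts time points. On arrays of whole cultures, less transcript per cell and fewer cells with the transcript cannot be told apart.

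**Figure D1:**
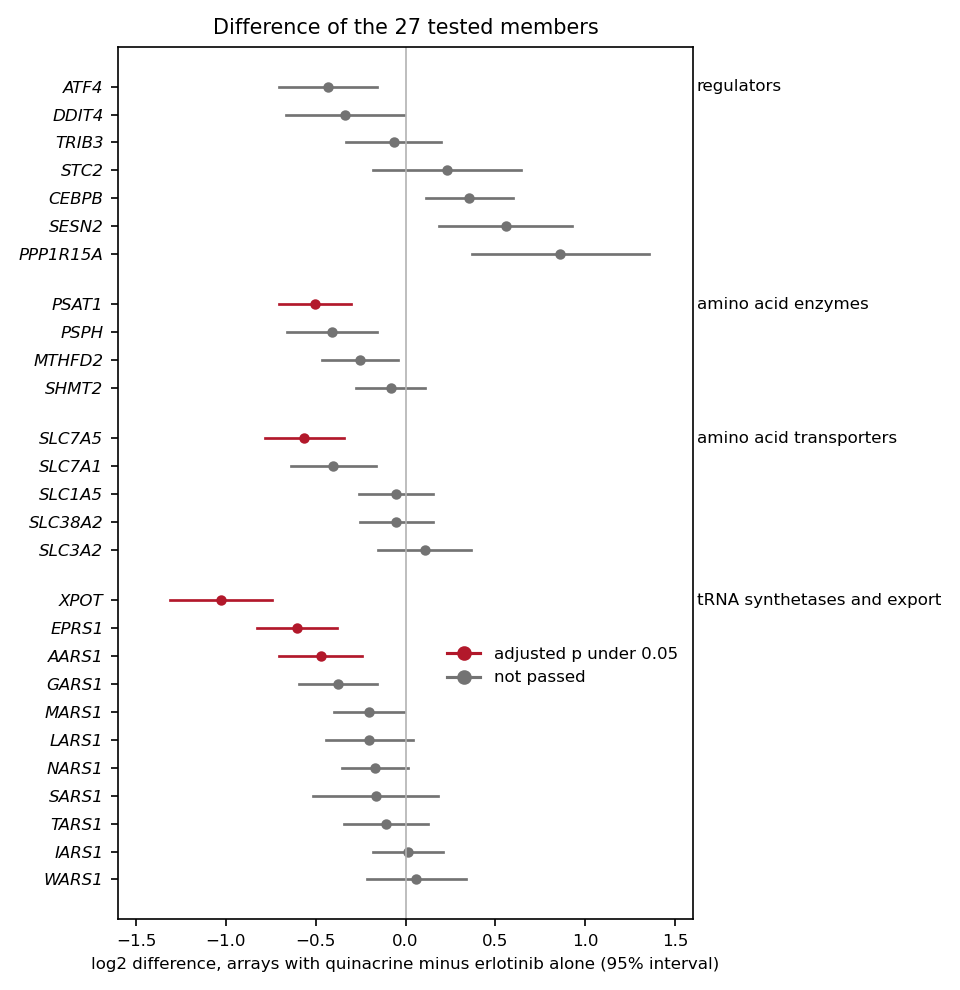
Log2 difference of each of the 27 tested members, mean of the quinacrine and combination arrays minus erlotinib, with its 95% interval from limma, grouped by role. The 5 members past the threshold, in red, all lie left of 0, from XPOT at -1.03 to AARS1 at -0.47, and 3 of 7 regulators lie left of 0.

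XPOT carries mature tRNAs from the nucleus to the cytoplasm. Its level was 7.52, 6.96, 6.71 and 6.75 in the combination (6, 12, 24 and 48 h) and 7.28, 6.62 and 6.79 in quinacrine (6, 12 and 24 h), against 8.02, 8.01, 7.82 and 7.94 in erlotinib and 7.93 in untreated cells. All 7 arrays with quinacrine lay below all 4 erlotinib arrays and below the untreated array, and the erlotinib arrays lay within 0.11 of the untreated level. The difference was -1.03 (2.04-fold, SE 0.12, limma adjusted p = 0.00639). Against erlotinib at the same time, the combination differed by -0.50 at 6 h and by -1.05, -1.11 and -1.19 at 12, 24 and 48 h.

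EPRS1 charges tRNAs with glutamate and proline. It stood at 8.12, 7.97, 7.65 and 7.71 in the combination and at 8.13, 8.03 and 7.76 in quinacrine, against 8.48, 8.56, 8.44 and 8.59 in erlotinib and 8.49 in untreated cells. Here too every array with quinacrine was below every erlotinib array, and the later arrays with quinacrine were the lowest. The difference was -0.61 (1.52-fold, SE 0.098, adjusted p = 0.0142 in limma).

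AARS1, the alanine enzyme, had the match shown above in its promoter. Its level was 8.30, 8.48, 8.68 and 8.77 in the combination and 8.42, 8.35 and 8.70 in quinacrine, against 9.07, 8.97, 8.91 and 9.15 in erlotinib and 8.80 in untreated cells. The groups did not overlap, and the untreated array lay between them. The difference was -0.47 (1.39-fold, SE 0.10, limma adjusted p = 0.0327).

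The other 8 tested synthetase genes did not pass. GARS1, for glycine, had 8.55, 8.42, 8.43 and 8.61 in the combination and 8.31, 8.44 and 8.57 in quinacrine, against 8.71 to 9.01 in erlotinib, a difference of -0.38 with a limma adjusted p of 0.0533. MARS1, for methionine, ranged over 6.74 to 6.89 on the 7 arrays with quinacrine and 6.92 to 7.09 on the erlotinib arrays. Both were thus lower on every array with quinacrine than on every erlotinib array without reaching the threshold. The untreated array, at 8.57 for GARS1 and 6.84 for MARS1, lay within the range of the arrays with quinacrine and below the erlotinib arrays. LARS1 (leucine), NARS1 (asparagine) and TARS1 (threonine) differed by -0.20, -0.17 and -0.11. IARS1 (isoleucine) and WARS1 (tryptophan) differed by 0.01 and 0.06, with 95% intervals of -0.18 to 0.21 and -0.21 to 0.34. SARS1, for serine, had 5.32, 5.96, 5.95 and 6.04 in the combination and 5.64, 5.88 and 6.06 in quinacrine, against 6.24, 5.80, 6.07 and 5.96 in erlotinib and 6.25 in untreated cells. Its combination 6 h value stood apart from the other 11, on the array with the low median.

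Over the tested members, all 7 arrays with quinacrine lay below all 4 erlotinib arrays for XPOT, AARS1, GARS1, EPRS1 and MARS1, which is 5 of 27 against 5.62% of all tested genes. They lay above for PPP1R15A, 1 of 27 against 2.78%. The 5 genes without overlap below were all from the synthetase and export group.

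SLC7A5 is the light chain of the exchanger that imports leucine and other large neutral amino acids. It stood at 11.24, 11.07, 10.99 and 10.91 in the combination and at 11.42, 11.02 and 10.86 in quinacrine, against 11.73, 11.60, 11.71 and 11.40 in erlotinib and 11.31 in untreated cells. The quinacrine 6 h array lay just above the lowest erlotinib array, that of 48 h, and the other 6 arrays with quinacrine lay below. The difference was -0.56 (1.48-fold, SE 0.096, limma adjusted p = 0.0177).

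The partner chain of SLC7A5 did not pass. SLC3A2, which anchors the exchanger in the membrane, had 9.23, 9.21, 9.36 and 9.60 in the combination and 9.29, 9.17 and 9.40 in quinacrine, against 9.35, 9.29, 9.18 and 9.06 in erlotinib and 9.32 in untreated cells, a difference of 0.11 with a 95% interval of -0.15 to 0.36. SLC7A1, a carrier of arginine and lysine, had 7.16, 7.07, 7.26 and 7.14 in the combination and 7.14, 6.89 and 6.84 in quinacrine, against 7.70, 7.19, 7.62 and 7.26 in erlotinib and 7.57 in untreated cells, a difference of -0.40 that missed the threshold (limma adjusted p = 0.0558). The groups of SLC7A1 overlapped through the combination arrays. SLC1A5, a carrier of glutamine, and SLC38A2, a carrier of small neutral amino acids, differed by -0.05 each, with 95% intervals of -0.26 to 0.15 and -0.26 to 0.16. SLC38A2 had 9.06, 9.05, 8.96 and 9.24 in the combination and 9.24, 8.95 and 9.11 in quinacrine, against 9.03, 9.16, 9.16 and 9.31 in erlotinib and 8.86 in untreated cells. The untreated array was the lowest of the 12 for SLC38A2.

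PSAT1 was the 1 called member among the 4 tested enzymes. It is the aminotransferase of serine synthesis and had 8.62, 8.46, 8.43 and 8.05 in the combination and 8.71, 8.38 and 8.36 in quinacrine, against 8.99, 8.98, 8.90 and 8.71 in erlotinib and 8.87 in untreated cells. The groups met at 8.71, the value of quinacrine at 6 h and of erlotinib at 48 h. The difference was -0.50 (1.42-fold, SE 0.088, limma adjusted p = 0.0187). PSPH, the phosphatase of the last step, ranged over 6.42 to 6.99 on the arrays with quinacrine and 6.89 to 7.21 on the erlotinib arrays, and its difference of -0.41 had a limma adjusted p of 0.0622. MTHFD2, a mitochondrial enzyme of the folate cycle, had 5.72, 5.77, 5.76 and 5.68 in the combination and 5.90, 5.71 and 5.68 in quinacrine, against 6.26, 5.86, 5.89 and 5.96 in erlotinib and 5.88 in untreated cells. Its quinacrine 6 h array overlapped the erlotinib arrays, and its difference of -0.25 did not pass (limma adjusted p = 0.144). SHMT2, which turns serine into glycine in mitochondria, differed by -0.08 with a 95% interval of -0.28 to 0.11.

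**Figure D2:**
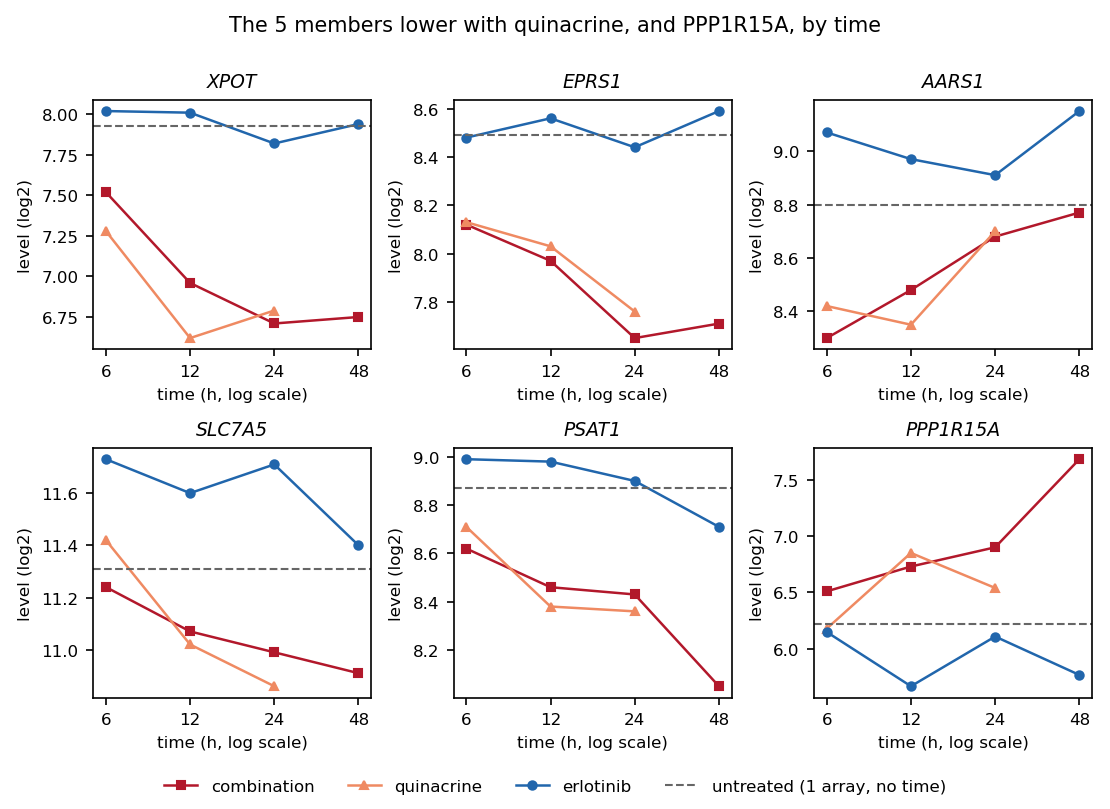
Log2 level against time (h, log axis) of the 5 members that were lower with quinacrine and of PPP1R15A, 1 point per array, with the untreated array as a dashed line. The arrays with quinacrine lie below those of erlotinib at each matched time for the first 5 genes and above for PPP1R15A, from 6.18 against 6.15 for quinacrine and erlotinib at 6 h to 7.68 against 5.77 for the combination and erlotinib at 48 h.

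The regulators had no called member in this comparison, and they lay on both sides of 0. PPP1R15A, the phosphatase subunit GADD34 that reverses eIF2 phosphorylation, had 6.51, 6.73, 6.90 and 7.68 in the combination and 6.18, 6.85 and 6.54 in quinacrine, against 6.15, 5.67, 6.11 and 5.77 in erlotinib and 6.22 in untreated cells. The groups did not overlap, although quinacrine and erlotinib at 6 h nearly met. The difference was 0.86 (95% interval 0.37 to 1.35), just short of the threshold (limma adjusted p = 0.0505).

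The ATF4 transcript had a negative difference. Its level was 5.77, 6.36, 6.55 and 6.79 in the combination and 6.05, 6.10 and 6.40 in quinacrine, against 6.64, 6.66, 6.81 and 6.91 in erlotinib and 6.51 in untreated cells. Each array with quinacrine lay below the erlotinib array of its time, and the gap of the combination was 0.87 at 6 h and 0.12 at 48 h in size. The difference of -0.43 did not pass (limma adjusted p = 0.0688).

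CEBPB, a C/EBP partner of ATF4, had 5.78, 6.08, 6.37 and 6.66 in the combination and 5.90, 6.27 and 6.60 in quinacrine, against 5.76, 5.91, 6.00 and 6.06 in erlotinib and 5.62 in untreated cells. Its values rose with time in all 3 groups (see the trend with time), and the difference of 0.35 between groups did not pass (limma adjusted p = 0.0877). SESN2, a sestrin that restrains mTORC1, had 6.34, 6.32, 5.87 and 6.07 in the combination and 6.05, 5.99 and 6.09 in quinacrine, against 6.04, 5.04, 5.64 and 5.35 in erlotinib and 5.94 in untreated cells. The erlotinib 6 h array alone overlapped the arrays with quinacrine, and the difference of 0.56 did not pass (limma adjusted p = 0.0790).

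DDIT4, another restraint on mTORC1, had 5.37, 5.33, 5.41 and 5.76 in the combination and 4.98, 5.17 and 5.46 in quinacrine, against 5.77, 5.06, 6.03 and 6.04 in erlotinib and 5.29 in untreated cells. The erlotinib 12 h array was low among its own group, and the difference of -0.34 did not pass (limma adjusted p = 0.196). TRIB3, a pseudokinase that binds ATF4, had 6.76, 7.03, 7.19 and 7.04 in the combination and 6.69, 7.13 and 7.0 in quinacrine, against 7.0, 6.76, 7.21 and 7.27 in erlotinib and 7.06 in untreated cells. The groups of TRIB3 covered the same range, with a difference of -0.07 and a 95% interval of -0.33 to 0.20. STC2, a secreted glycoprotein, had 5.92, 6.43, 6.66 and 6.81 in the combination and 6.20, 6.21 and 6.82 in quinacrine, against 6.45, 6.25, 6.02 and 6.20 in erlotinib and 6.36 in untreated cells. At 6 h both arrays with quinacrine lay below erlotinib, at 12 h the combination lay above it and quinacrine below, and at 24 and 48 h all lay above.

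Leaving out 1 array or changing the normalization altered these calls, although no member that passed in either fit changed direction. XPOT kept its call in 18 of 19 alternatives and lost it without the erlotinib 24 h array (limma adjusted p = 0.0547), while EPRS1 kept it in 14, SLC7A5 in 13, PSAT1 in 10 and AARS1 in 6 of 19. Cyclic loess, median centring, a filter at a mean of 6 or leaving out the combination 6 h array called PPP1R15A higher and ATF4 lower. PPP1R15A was also called higher without the time term and without the erlotinib 6 h array. In some alternatives SESN2 and CEBPB were called higher, and GARS1, PSPH, SLC7A1, MTHFD2 and DDIT4 lower.

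The addition of quinacrine to erlotinib was then compared over the 4 matched times. XPOT (-0.96, 1.95-fold, SE 0.14, limma adjusted p = 0.0188), EPRS1 (1.57-fold), SLC7A5 (1.47-fold) and PSAT1 (1.42-fold) were lower in the combination than in erlotinib alone, and limma adjusted p was 0.0257 for EPRS1 and 0.0337 for SLC7A5 and PSAT1. No member was higher. Of all tested genes, 2.22% were called lower and 1.43% higher, 3.64% in either direction (83 higher and 129 lower, and 223 and 216 with each array centred on its median). AARS1 (-0.47) and PPP1R15A (1.03) missed the threshold, with limma adjusted p of 0.0636 and 0.0554. At all 4 times the combination lay below erlotinib for 13 of 27 tested members, against 14.3% of all tested genes, and above for 3, against 9.21%. No call of this comparison remained without any 1 of the 12, 24 or 48 h arrays of either group, and XPOT alone passed without any 1 of the quinacrine arrays.

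Quinacrine alone, compared with erlotinib alone, gave 1 called member. XPOT was lower by 2.13-fold (log2 -1.09, SE 0.15, limma adjusted p = 0.0201), and 26 of 27 members did not pass, against 1.13% of all tested genes called in either direction, 0.619% lower and 0.515% higher. This call was lost without the erlotinib 12 or 24 h array and without each quinacrine array. The differences of SLC7A5 (-0.57), EPRS1 (-0.56), SLC7A1 (-0.52), PSAT1 (-0.50) and PPP1R15A (0.69) did not pass. This comparison and the one before it share the erlotinib arrays, so that their like values are not separate evidence.

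No difference between the combination and quinacrine alone was called, for any of the 27 members or for any of the 5820 genes (0%) in limma. At an unadjusted p under 0.05 there were 47 genes and 0 members. The members' differences ran from -0.13 for CEBPB to 0.34 for PPP1R15A, and the 95% intervals of 21 of 27 lay within 0.5 on either side of 0. PPP1R15A had an interval of -0.27 to 0.95. SLC7A1 differed by 0.23 (-0.06 to 0.53), DDIT4 by 0.16 (-0.24 to 0.57) and SESN2 by 0.15 (-0.31 to 0.61). A difference of erlotinib added to quinacrine of up to about those bounds could not be seen with these arrays.

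At each time the median difference of the tested members from erlotinib lay below that of all tested genes. The medians of the combination minus erlotinib were -0.37 for members and -0.27 for all genes at 6 h, -0.09 and 0.14 at 12 h, -0.20 and 0.04 at 24 h, and -0.12 and -0.02 at 48 h. Those of quinacrine minus erlotinib were -0.31 and -0.09 at 6 h, -0.15 and 0.06 at 12 h, and -0.19 and 0.07 at 24 h. Among the roles, the regulators' median of the combination minus erlotinib was -0.24 at 6 h and 0.60 at 48 h, while that of the synthetase and export genes was -0.42 at 6 h and -0.06 at 48 h. The 6 h values of the combination rest on its 6 h array, whose median over all tested genes was low, while those of quinacrine minus erlotinib do not use that array.

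The other 12 members had a mean level under 5 and were not part of the test: ATF3, DDIT3, CHAC1, CEBPG, VLDLR, ASNS, PHGDH, ALDH1L2, CTH, CBS, PCK2 and YARS1. The median of all rows of an array was 1.39 to 1.64, and 8 of the 12 had no value of 5 or more. Their differences are given from a fit without the filter, over 22395 genes, in which limma called 0.701% of genes in the comparison of arrays with quinacrine against erlotinib.

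CHAC1, an enzyme that degrades glutathione, had 3.18, 3.07, 3.25 and 3.19 in the combination and 3.53, 2.87 and 3.26 in quinacrine, against 4.44, 3.91, 4.22 and 4.0 in erlotinib and 4.12 in untreated cells. All arrays with quinacrine were below all others, and the difference was -0.96 (1.94-fold, limma adjusted p = 0.0122 without the filter). ALDH1L2, a mitochondrial folate enzyme, had 1.59, 1.18, 1.16 and 1.29 in the combination and 1.60, 1.37 and 1.52 in quinacrine, against 2.51, 2.09, 2.33 and 2.40 in erlotinib and 1.95 in untreated cells. Its groups did not overlap either, with a difference of -0.93 (limma adjusted p = 0.00877 without the filter), at levels about the array median. These are 2 of the 12 members under the filter, against 1.07% of the named genes under it whose arrays with quinacrine all lay below, and none of the 12 lay above, against 0.778%.

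DDIT3, the stress factor CHOP, had 3.04, 3.37, 4.29 and 4.78 in the combination and 3.30, 3.60 and 4.35 in quinacrine, against 3.22, 3.48, 3.16 and 3.18 in erlotinib and 3.67 in untreated cells. The 3 arrays with quinacrine at 24 and 48 h were the highest of the 12, and those at 6 and 12 h were not above the untreated array. The difference of 0.62 did not pass (limma adjusted p = 0.362 without the filter), and the second row for DDIT3 lay at a mean of 0.626. ASNS, asparagine synthetase, had 3.55, 3.62, 3.51 and 3.43 in the combination and 3.99, 3.45 and 3.57 in quinacrine, against 4.18, 3.92, 4.13 and 4.24 in erlotinib and 3.88 in untreated cells. Its 4 combination arrays were below the erlotinib arrays, and the difference of -0.52 did not pass (limma adjusted p = 0.102 without the filter).

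PHGDH, the first enzyme of serine synthesis, had 4.51, 4.77, 4.43 and 4.24 in the combination and 4.76, 4.68 and 4.36 in quinacrine, against 5.09, 4.74, 5.15 and 5.66 in erlotinib and 4.72 in untreated cells. Its erlotinib mean of 5.16 was above 5 while its mean over all arrays, 4.76, was not. ATF3, a transcription factor induced by stress, had 3.27, 2.46, 2.52 and 2.20 in the combination and 2.37, 1.45 and 2.52 in quinacrine, against 2.12, 2.04, 1.34 and 1.91 in erlotinib and 1.55 in untreated cells. The combination arrays of ATF3 were above the erlotinib arrays, while quinacrine alone overlapped them.

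The remaining 6 spread less evenly. CTH, which makes cysteine, stood at 3.58 to 4.20 in the combination and 3.84 to 4.03 in quinacrine, against 4.03, 3.87, 4.85 and 5.15 in erlotinib. The erlotinib arrays of 24 and 48 h were the high ones. CBS, the enzyme before it, ranged over 2.76 to 3.53 with quinacrine and 3.29 to 3.76 with erlotinib. VLDLR, a lipoprotein receptor, had its lowest value of 1.61 in the combination at 6 h. YARS1 (tyrosine) ranged over 4.31 to 4.73 with quinacrine and 4.73 to 5.11 with erlotinib. CEBPG, another C/EBP partner of ATF4, had 4.68 to 5.43 on the treated arrays and 4.26 in untreated cells. PCK2, which makes phosphoenolpyruvate in mitochondria, had 2.98 to 4.15 on the treated arrays and 2.35 in untreated cells.

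**Figure D3:**
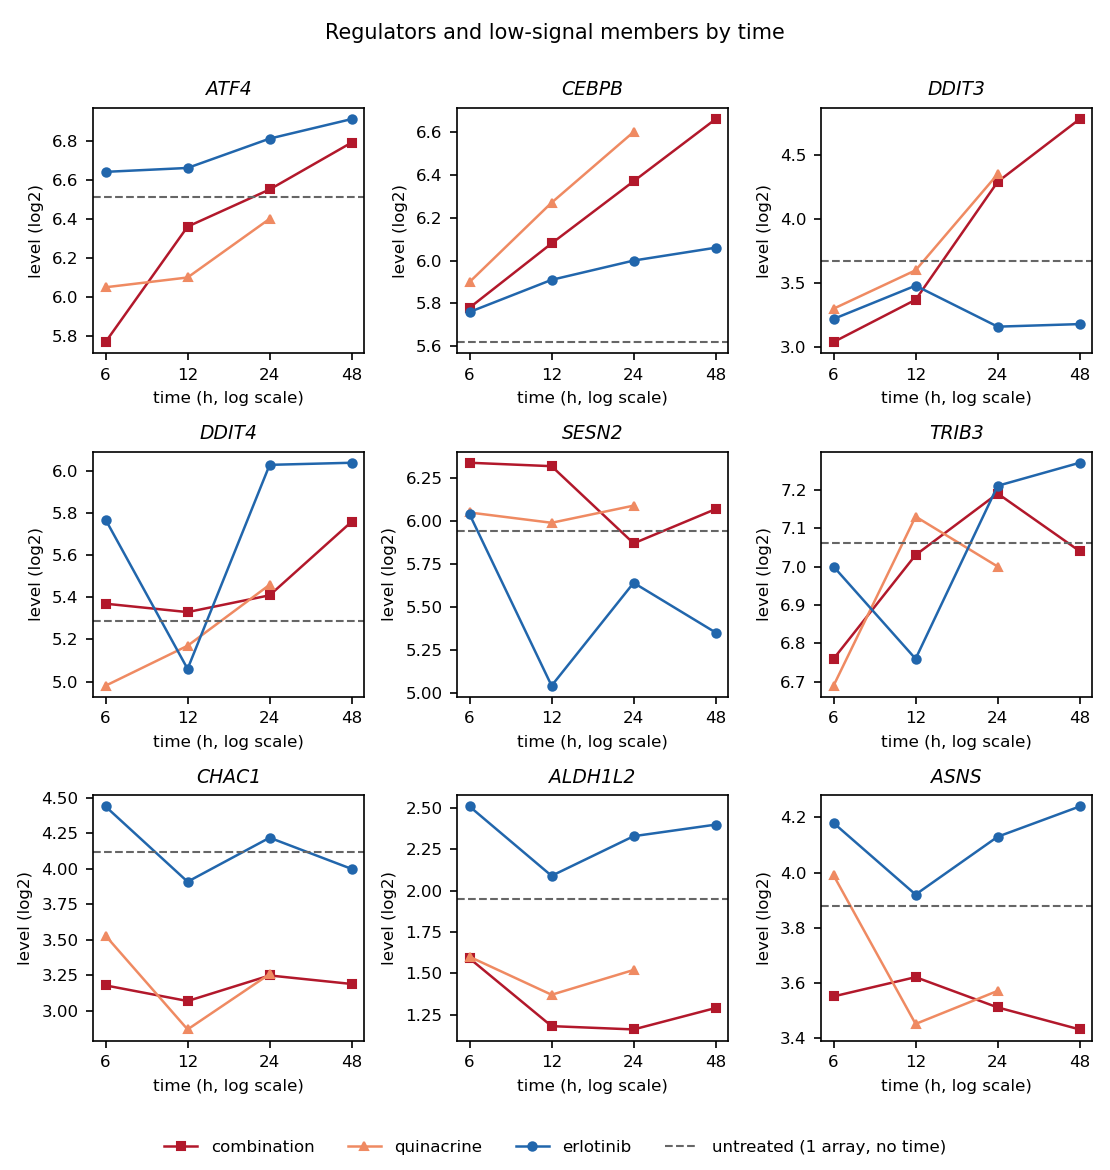
Log2 level against time (h, log axis) of 6 regulators and of CHAC1, ALDH1L2 and ASNS, 1 point per array, with the untreated array as a dashed line. CEBPB climbs in all 3 treated groups, the DDIT3 arrays with quinacrine reach 4.29 to 4.78 at 24 and 48 h, and CHAC1 and ALDH1L2 keep all arrays with quinacrine below those of erlotinib.

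Set against the untreated array, no member passed in any treated group in limma, with smallest adjusted p of 0.321 for the combination, 0.286 for quinacrine and 0.999 for erlotinib. The calls over all tested genes were 0.0515% for the combination (0.0172% higher), 0.0344% for quinacrine and 0% for erlotinib. In the same order, limma gave an unadjusted p under 0.05 for 3, 3 and 0 of the 27 members. Of the 5820 tested genes it did so for 649, 599 and 144. These fits assume that the lone untreated array varies like the treated ones, and they have no time term. Among the 27 tested members the largest differences were -0.94 for XPOT, 0.73 for PPP1R15A, -0.63 for EPRS1 and 0.60 for CEBPB in the combination. In quinacrine they were -1.03 for XPOT, 0.64 for CEBPB, -0.61 for SLC7A1 and -0.52 for EPRS1, and in erlotinib 0.43 for DDIT4, -0.42 for SESN2, 0.31 for CEBPB and 0.30 for SLC38A2. Some members under the filter differed by more in the fit without it, among them PCK2 (1.14 in the combination, 0.86 in quinacrine and 1.38 in erlotinib), ATF3 (1.06 in the combination) and CTH (1.08 in erlotinib), none past the threshold in limma. The medians over members were -0.07 in the combination, -0.12 in quinacrine and 0.03 in erlotinib.

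**Figure D4:**
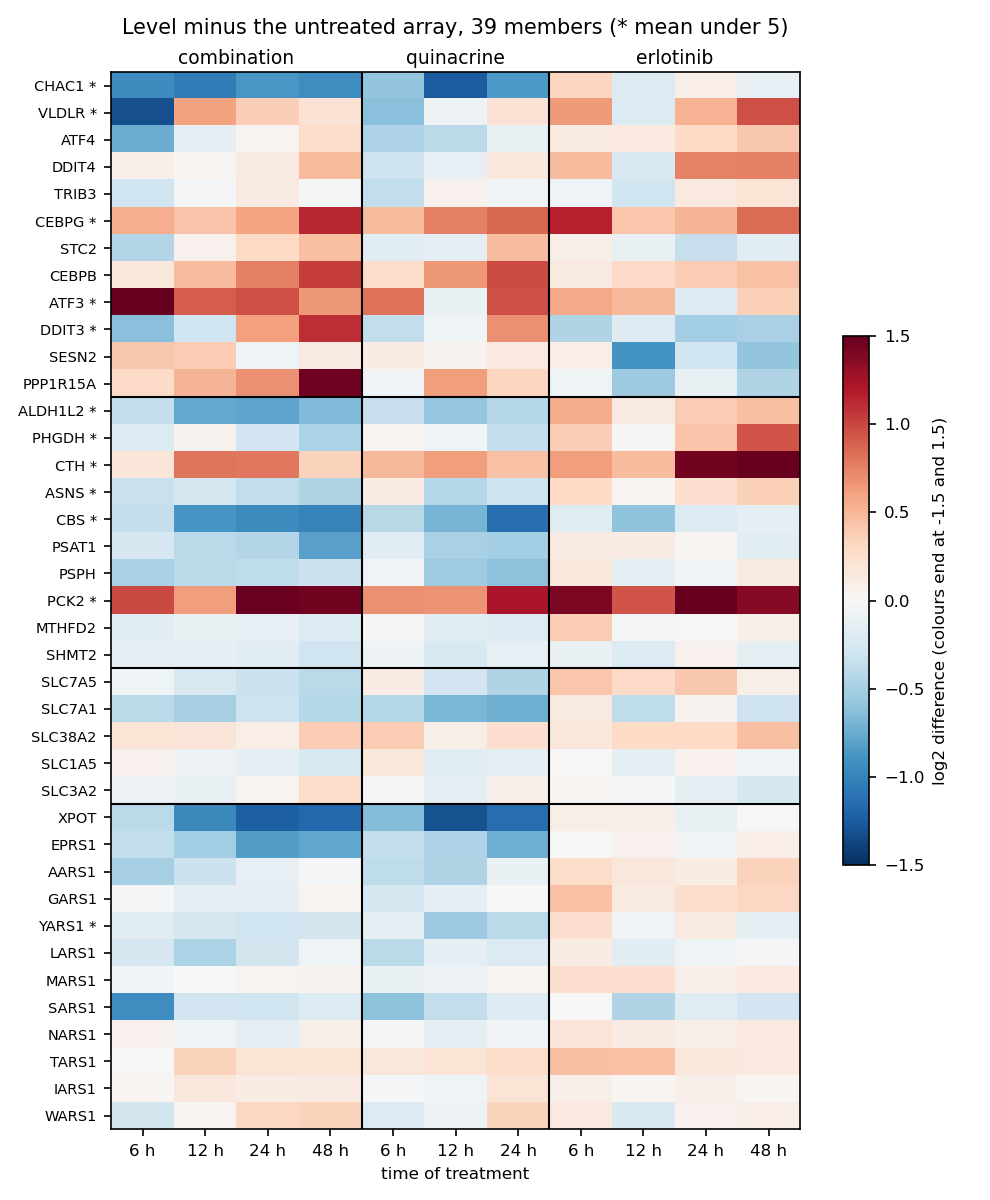
Log2 level of each of the 39 members on each treated array minus the untreated array, grouped by role, with an asterisk for members whose mean was under 5. XPOT and CHAC1 are among several members lower on each of the 7 arrays with quinacrine, and PCK2 is among several higher on all 11 treated arrays. The combination 6 h column holds the low values of VLDLR (1.61, against 2.93 in untreated cells) and SARS1 (5.32, against 6.25).

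The trend with time was fitted as 1 slope for the combination, quinacrine and erlotinib arrays together, per doubling of the hours. CEBPB rose by 0.22 per doubling (SE 0.044, limma adjusted p = 0.0324) and was the only one of 27 members called, against 2.30% of all tested genes in either direction, of which 2.03% rose. The median slope of all tested genes was 0.05, and 118 genes rose and 16 fell, against 126 and 105 with each array centred on its median and 139 and 60 with cyclic loess. ATF4 had a slope of 0.20 (limma adjusted p = 0.0551) and PSAT1 one of -0.14 (0.0742), neither past the threshold. DDIT4 (0.17), XPOT (-0.17), PPP1R15A (0.15) and SLC7A5 (-0.13) did not pass either. The call of CEBPB was lost with cyclic loess, with median centring, with hours in place of log2 hours, without the filter, with the arrays of 6, 12 and 24 h alone, and without any 1 of the combination 6, 24 and 48 h, erlotinib 24 h or quinacrine arrays.

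The slopes with quinacrine were compared with those of erlotinib by an interaction term. No member and no gene (0%) passed in limma, and the smallest members' adjusted p was 0.0913. An unadjusted p under 0.05 in limma was found for 8 of 27 members and for 929 of 5820 tested genes. Among the 27 tested members STC2 differed most, by 0.39 per doubling (95% interval 0.19 to 0.60), followed by PPP1R15A at 0.38 (0.08 to 0.69) and SARS1 at 0.27 (0.05 to 0.50). For STC2 and PPP1R15A the last array of the combination and that of quinacrine alone were above those of 6 h, while erlotinib was lower at 48 h than at 6 h. CEBPB differed by 0.21, ATF4 by 0.19 and EPRS1 by -0.18, none past the threshold. Of the members under the filter, DDIT3 differed by 0.63 and CTH by -0.41 in the fit without it, with limma adjusted p of 0.162 and 0.442.

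Other genes of the pathway were taken from lists written beside the members. Of 22 further ATF4 targets, 12 were tested, with 1 higher, 2 lower and 9 not passed in arrays with quinacrine against erlotinib, and their median was 0.11. Of all tested genes, 6.65% were called in this comparison, 2.87% higher and 3.78% lower. SLC7A11, the cystine carrier, had 7.35, 6.69, 5.30 and 5.28 in the combination and 7.47, 6.54 and 5.54 in quinacrine, against 8.09, 7.66, 7.45 and 7.14 in erlotinib and 7.77 in untreated cells. Its latest arrays with quinacrine were the lowest of the 12, though its slope difference of -0.51 per doubling did not pass (limma adjusted p = 0.116), and it was lower by 2.57-fold (log2 -1.36, limma adjusted p = 0.0123). HERPUD1, a gene of endoplasmic reticulum degradation, was lower (-0.58, limma adjusted p = 0.0258), and GDF15, a secreted stress signal, was higher (0.99, limma adjusted p = 0.0411). GDF15 had 6.67, 7.22, 8.0 and 7.98 in the combination and 7.09, 7.19 and 7.97 in quinacrine. Erlotinib had 5.57, 5.58, 7.17 and 8.2 for GDF15, above the combination at 48 h, and untreated cells had 4.99. Of 19 alternatives SLC7A11 kept its call in 16 and GDF15 in 8, and of 18 HERPUD1 kept it in 8. In the combination against erlotinib SLC7A11 (-1.43) and HERPUD1 (-0.60) were lower, with limma adjusted p of 0.0242 and 0.0427. They were 2 of the 12, against 3.64% of all tested genes called in either direction. SLC7A11 kept this call in 8 of 20 alternatives and HERPUD1 in 5 of 19.

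The genes of tRNA charging and translation control outside the members are to be read against the 6.65% of all tested genes called in this comparison. The cytosolic synthetase list had 7 tested genes, among them AIMP1, a protein of the synthetase complex and not itself a synthetase. Of these 7, FARSB, a subunit of the phenylalanine enzyme, was lower (-0.45, limma adjusted p = 0.0477) and 6 did not pass. Their median was 0.06, and KARS1 (lysine) differed by 0.18. FARSB kept its call in 6 of 19 alternatives. None of 10 tested mitochondrial synthetase genes passed (median -0.07), with YARS2 at 0.23 and WARS2 at 0.21. Of 11 tested eIF2 kinases and translation control genes, EIF2B2, a subunit of the exchange factor of eIF2, was higher (0.41, limma adjusted p = 0.0392), IMPACT, an inhibitor of the eIF2 kinase GCN2, was lower (-1.02, limma adjusted p = 0.0477), and 9 did not pass. IMPACT stood at 3.88, 5.24, 4.99 and 4.89 in the combination and at 4.77, 4.32 and 5.1 in quinacrine. In erlotinib it stood at 5.89, 5.81, 5.52 and 5.89, and in untreated cells at 5.62. Its mean of 5.16 passed the filter only through the erlotinib and untreated arrays, so its call is not evidence of a fall. EIF2B2 kept its call in 7 of 19 alternatives and IMPACT in 6 of 18. None of 5 further serine and one-carbon genes passed (median -0.10), with TYMS at -0.39 and SHMT1 at -0.17.

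Over time, GDF15 (0.66 per doubling), EIF2AK2 (0.38), ASS1 (0.33), SLC6A9 (0.28), VEGFA (0.25), CEBPD (0.25) and TARS2 (0.18) rose and SLC7A11 fell by 0.60 (limma adjusted p from 0.0169 to 0.0386). That is 5 up and 1 down of the 12 further ATF4 targets, 1 of 10 mitochondrial synthetase genes and 1 of 11 eIF2 and translation control genes, against the 2.30% of all tested genes. None of the 7 genes of the cytosolic synthetase list and 5 serine and one-carbon genes outside the members passed. Of 19 alternatives GDF15 kept this call in 16, ASS1 in 13, CEBPD and SLC7A11 in 12 and EIF2AK2 in 6, and of 18 SLC6A9 kept it in 9, TARS2 in 6 and VEGFA in 5. Over all genes, 18 rose and 8 fell without the combination 6 h array, and 815 rose and 48 fell without the erlotinib 6 h array. EIF2AK2 encodes PKR, an eIF2 kinase switched on by double-stranded RNA.

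The promoter match was set beside the differences. The 9 tested members with a match had a median difference of -0.17 between arrays with quinacrine and erlotinib, over a range of -0.47 to 0.11, and the 15 without a match one of -0.17, over -1.03 to 0.86. Of the 5 called members, AARS1 held a match, and XPOT, EPRS1, SLC7A5 and PSAT1 had none in this window. A match is a string of letters and not a measured binding site, and its absence from this window says nothing of sites elsewhere.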

How the data were processed

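The series held 12 arrays of RNA from NCI-H1975 cells. The authors ran RMA (with quantile normalization between arrays) in Affymetrix Expression Console 1.30 and named probe sets from hg19 annotation, per the design text of the series. What they deposited are log2 levels with 2 decimals and were used as deposited. Of 53617 rows, 23871 had 1 gene symbol, 1842 several and 27904 none. The row of the highest mean stood for a gene with several rows. Genes with a mean of at least 5 over all arrays were tested (5820, 26.0% of those named), with limma 3.58.1 in R 4.3.3 and Benjamini-Hochberg adjustment over all of them at 0.05. Treated groups were compared in 1 fit of 11 arrays with treatment and time as factors, each with the untreated array in a fit of group means, and time as log2 hours. Arrays carry no read depth, and their number limits the precision. No label says that the arrays are of separate cultures, and the spread behind each p-value is that between these arrays, which may be technical. The members and all gene lists were chosen with earlier results of these data known. The members named array by array were set by a rule: main regulators, enzymes and transporters, every called member, and the 4 largest differences of each comparison, and of other lists the called genes and the 2 with the smallest p. The fit with treatment and time terms was run on simulated arrays with independent errors, and it returned the planted difference on average. The simulation did not cover the fits against the untreated array, the slopes with time, or a shift of a whole array. Promoters came from RefSeq, GRCh38.p14. Alternatives covered the filter, rows, normalization, time term, arrays used and each array left out, plus 1 chosen after seeing the data, which left out the combination 6 h array and the erlotinib 12 h array together.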

Additional observations from a re-analysis of the deposited data

Results flagged for a closer look

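CBS on the erlotinib 12 h array, at 3.29, stood far from the other erlotinib arrays, which lay at 3.69 to 3.76. SARS1 on the combination 6 h array, at 5.32, stood far from the other combination arrays, at 5.95 to 6.04. These were 2 of 78 groups of 4 arrays looked at, and chance flags about 1 in 20. The arrays of a group differ in time, and both values lie on the 2 arrays with the smallest interquartile ranges (2.04 for the combination 6 h array and 2.26 for the erlotinib 12 h array). Their part in these values was not tested.

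For 5 members every combination array lay on one side of the untreated array and every erlotinib array on the other. How many of all genes did so was not counted, so this number is not a result about the members. PPP1R15A was above in the combination (mean 0.73) and below in erlotinib (-0.29), a difference of 1.03. SLC7A5 was below in the combination (-0.26) and above in erlotinib (0.30), a difference of -0.56. AARS1 was below (-0.24) and above (0.23), a difference of -0.47 between the combination and erlotinib. ASNS was below (-0.35) and above (0.24), a difference of -0.59, and ALDH1L2 below (-0.65) and above (0.38), a difference of -1.03, both at mean levels under 5. The comparison of the combination with erlotinib in limma called SLC7A5 alone among PPP1R15A, SLC7A5 and AARS1. That the effects run in opposite directions from the untreated array was not tested, since it rests on 1 untreated array.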

How the results depend on the processing

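Each comparison was refitted under the alternatives of processing, and 284 of 340 counts and medians stayed within their limits. Medians were within limits if they moved by less than the members' median standard error. Comparisons with no called member kept a count of 0 under every alternative and are among the 284, so this total does not measure how stable the calls are. Most of the 56 that moved were counts in the comparisons given next, those with called members. Among 4581 values of single members, none that passed reversed its direction, 101 lost and 76 gained a call, and 194 values that passed under neither setting changed sign. Members called in the arrays with quinacrine against erlotinib numbered 5, and 13 with cyclic loess (3 higher and 10 lower), 12 with median centring (3 and 9), 10 with a filter at a mean of 6 (1 and 9), 3 without a filter and 3 with the 6, 12 and 24 h arrays alone. The count was 0 to 10 when 1 array was left out, lowest without erlotinib 24 h and highest without combination 6 h. In the combination against erlotinib they numbered 4, and 8 with cyclic loess (2 higher and 6 lower), 7 with median centring (2 and 5), 2 without the 2 arrays of smallest interquartile range (chosen after seeing the data), 0 with the 6, 12 and 24 h arrays alone and 0 with the groups compared alone, and 0 to 6 with 1 array left out. In quinacrine against erlotinib the count was 1, and 7 with cyclic loess, 5 with a filter at 6, 4 with median centring and 0 without a filter, all lower, and 0 to 7 with 1 array left out, highest without combination 6 h. In the slope with time it was 1, and 2 with cyclic loess (1 up and 1 down), 2 with a filter at 6 (both up), 2 with median centring (both down), and 0 with hours, without a filter, with the 6, 12 and 24 h arrays alone and without those 2 arrays, and 0 to 6 with 1 array left out, highest without erlotinib 6 h. The members' median slope was 0.0183, and -0.0485 with median centring, so its direction rests on the scaling. Their median slope difference was 0.0623, and -0.0241 with median centring, and ran from -0.0343 to 0.1157 with 1 array left out, below 0 without erlotinib 6 h. The cause of these shifts was not tested. Over all tested genes the calls ran over 25 to 774 for the arrays with quinacrine against erlotinib, 6 to 485 for the combination against erlotinib, 0 to 334 for quinacrine against erlotinib and 0 to 863 for the slope. Leaving out the untreated array gives no comparison with it. The labels give no replicate numbers, and arrays are matched across groups by time, which is a term of the fit. The fit of the combination and erlotinib arrays alone, paired by time, is the one with the groups compared alone given above.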
